A study of Mus musculus with 12 samples.

Results

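A set of 9 genes of striated muscle that answer to stretch, namely Abra, Ankrd1, Ankrd2, Ankrd23, Xirp1, Xirp2, Csrp3, Fhl1 and Fhl2, were examined in mouse hearts that express expanded GGC repeats. The set was chosen on measured values, because Abra was higher in EIIa-tg hearts than in EIIa-ctl hearts, and the other 8 genes were added as stretch- and SRF-responsive muscle genes. All 9 were found by symbol among the 25171 loci of the deposited tables. Heart RNA of 12 mice was measured by RNA-seq, 3 in each of 4 groups. All groups descend from conditional mice with loxP-stop-loxP-NOTCH2NLC-(GGC)98 at the Rosa26 site. EIIa-tg mice also carry EIIa-Cre, which acts in the early embryo and so in most tissues, and were taken at postnatal day 30 (P30) with their littermates without that Cre, EIIa-ctl. The Myh6 groups are labelled as carrying Myh6-creERT2, a tamoxifen-inducible Cre driven by the cardiomyocyte promoter Myh6. From P60 they received 3 injections, one every other day at 75 mg/kg body weight as the labels give it, of tamoxifen in corn oil (Myh6-tg) or of corn oil (Myh6-ctl), and hearts were taken at P90. By these labels tamoxifen and the transgene expression it induces move together in the Myh6 comparison. The models differ from each other in age, Cre line and injection at the same time.

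A heart muscle cell senses load at the Z-disc, the I-band of titin and the cell junctions. Abra (also called STARS) binds actin and promotes its polymerization, which frees the coactivator MRTF to enter the nucleus and switch on genes through serum response factor, SRF. The muscle ankyrin repeat proteins Ankrd1 (CARP), Ankrd2 (ARPP) and Ankrd23 (DARP) bind titin in the I-band and also enter the nucleus. Xirp1 (Xin) and Xirp2 (Xin beta) bind actin filaments at the intercalated disc. Csrp3 (muscle LIM protein), Fhl1 and Fhl2 are LIM-domain proteins of the Z-disc and the I-band. Several of these genes are known to be induced in overloaded or failing hearts.

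In GRCm38, Abra (ENSMUSG00000042895) lies at chr15:41864076-41869720. The ankyrin repeat genes are Ankrd1 (ENSMUSG00000024803, chr19:36111961-36120099), Ankrd2 (ENSMUSG00000025172, chr19:42036000-42045110) and Ankrd23 (ENSMUSG00000067653, chr1:36530188-36536883). The Xin genes are Xirp1 (ENSMUSG00000079243, chr9:120013755-120023598) and Xirp2 (ENSMUSG00000027022, chr2:67446002-67526614). The LIM genes are Csrp3 (ENSMUSG00000030470, chr7:48830398-48848033), Fhl1 (ENSMUSG00000023092, chrX:56731787-56793346) and Fhl2 (ENSMUSG00000008136, chr1:43123074-43196984). Ankrd23 overlaps the same-strand gene Gm42417 and Xirp1 overlaps Cx3cr1, both of which are counted in the tables, so the authors' counting could have split reads between them. Over the 12 hearts Gm42417 took at most 60.4 and Cx3cr1 at most 7.94 counts per 1000000 (CPM). Xirp2 has an antisense partner, Gm13601, and a kit that keeps the strand is not stated, so reads of both cannot be told apart.

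The stretches below are shown because their capitals mark motifs of factors that bind genes of this kind. They are bases before annotated starts, from RefSeq on GRCm38.p6, for the 7 members with an entry, trimmed to bases in no GENCODE M21 exon of the gene. Abra and Xirp1 have no entry. Capitals mark a CArG box, the site of SRF, in Fhl2 and Fhl1, a MEF2 site in Xirp2 and an M-CAT element (CATTCC or GGAATG), the site of TEAD factors, in Ankrd23. The stretch of Fhl2 is chr1:43163962-43164211 on the minus strand, that of Fhl1 is chrX:56779524-56779682 on the plus strand, that of Xirp2 is chr2:67445752-67446001 on the plus strand and that of Ankrd23 is chr1:36535740-36535989 on the minus strand. All but that of Xirp2 lie inside their gene, before an inner start.
Fhl2: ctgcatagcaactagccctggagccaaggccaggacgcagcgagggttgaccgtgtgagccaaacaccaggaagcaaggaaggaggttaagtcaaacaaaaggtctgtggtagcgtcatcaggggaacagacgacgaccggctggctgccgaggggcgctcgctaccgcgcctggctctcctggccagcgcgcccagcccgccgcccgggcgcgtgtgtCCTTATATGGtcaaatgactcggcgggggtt
Fhl1: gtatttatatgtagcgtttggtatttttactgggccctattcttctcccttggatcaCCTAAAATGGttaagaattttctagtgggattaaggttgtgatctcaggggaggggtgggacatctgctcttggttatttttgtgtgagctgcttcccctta
Xirp2: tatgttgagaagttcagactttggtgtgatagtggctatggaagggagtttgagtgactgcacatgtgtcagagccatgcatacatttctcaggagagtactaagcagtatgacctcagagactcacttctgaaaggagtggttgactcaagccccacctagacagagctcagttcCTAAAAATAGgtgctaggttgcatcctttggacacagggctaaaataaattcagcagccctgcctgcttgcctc
Ankrd23: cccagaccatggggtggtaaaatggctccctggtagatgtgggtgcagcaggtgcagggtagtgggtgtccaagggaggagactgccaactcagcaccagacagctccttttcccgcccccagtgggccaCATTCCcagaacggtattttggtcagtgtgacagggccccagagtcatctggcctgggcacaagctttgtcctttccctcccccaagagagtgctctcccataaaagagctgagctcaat

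The first motif base stood 31 bases before the start in Fhl2, 102 in Fhl1, 74 in Xirp2 and 120 in Ankrd23. In Ankrd1 all 250 bases before the RefSeq start lie in annotated exons of the gene, so no stretch was left after trimming. They held M-CAT elements 210 and 123 bases before that start, both thus exonic, of which the nearer reads as follows at chr19:36119952-36119977 on the minus strand.
Ankrd1: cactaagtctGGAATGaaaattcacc
Within 250 bases before a start and on both strands, exons included, a CArG box was found in 3 of the 11 promoters listed for the 7 genes. It was found in 1.47% of all 32851 promoters. The 3 belong to 2 genes, since Fhl2 has another such window at chr1:43196762-43197011, where 223 of the 250 bases are exonic. An M-CAT element was found in 2 of the 11 and in 12.6% of all. A MEF2 site was found in 2 of the 11, of which 1 is that Fhl2 window, and in 2.92% of all. An E-box (CANNTG) was found in 10 of the 11 and in 66.2% of promoters. Fhl1 and Fhl2, which both hold a CArG box here, had fold changes of opposite sign in both models, as given below. The Fhl2 value did not pass the test used below in the Myh6 model, and the part of the motif in these changes was not tested. A match is a description of letters and not evidence of binding.

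Each heart had between 38343106 and 50969834 counts, and levels are given as CPM scaled by TMM factors, on which the floor of 3 counts lies between 0.0568 and 0.0815 CPM. The inducible Cre is fused to a part of the estrogen receptor, and Esr1 was at 2331, 1384 and 1031 CPM in the Myh6-ctl hearts but at 1.30, 2.52 and 1.00 CPM in the hearts labelled Myh6-tg and between 0.408 and 1.23 CPM in the EIIa hearts. This goes against labels that give the Cre to both Myh6 groups, and every direction drawn below in that model rests on those labels. The transgene itself was not analysed here. The extraction label names brain as the source of RNA, whereas the 7 cardiomyocyte markers summed to between 8580.0 and 45595 CPM in each heart and the 6 markers of neurons and glia to between 11.0 and 45.2 CPM. Mitochondrially encoded protein genes took 15.5% to 18.6% of the counts in hearts labelled Myh6-tg and 31.8% to 38.3% in Myh6-ctl hearts. The summed cardiomyocyte markers were 29291 to 38828 CPM in Myh6-ctl hearts and 11343, 8580.0 and, in replicate 1, 28748 CPM in hearts labelled Myh6-tg, and the part of such shifts in the results below was not tested. In bulk tissue, fewer cells of a type and less RNA per cell cannot be told apart. Y-linked genes held 4224 to 7307 counts in the 4 hearts numbered 1 and no more than 2 in any other heart.

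Of the 9 genes, Xirp1, Xirp2, Ankrd1 and Fhl1 rose in the hearts labelled Myh6-tg, by log2 fold changes of 1.61 to 2.46, and Fhl2 was the 1 member with a negative value, which did not pass the test (edgeR quasi-likelihood test over 15298 genes, called at a Benjamini-Hochberg adjusted p under 0.05). The 4 calls compare with 8.96% of all genes called higher and 9.38% called lower. The other 8 members had a positive log2 fold change, and the median was 1.61 over the 9 against 0.03 over all genes. The replicate number was also used as a block, because same-numbered hearts of the Myh6 groups deviated together in these same data. The labels number the replicates but state no pairing. Hearts numbered 1 are those with Y-linked counts, so the block in part separates these hearts from the others. With the block, 6 members were called higher and 1 lower, against 9.76% and 11.2% of all genes. The members added were Abra, Ankrd2 and Fhl2. At the stricter rule (adjusted p below 0.01, and a fitted change of 1 or more on the log2 scale), Xirp1 was the 1 member called, against 3.97% of genes. The hearts of the Myh6 groups did not overlap in 4 members, all higher, against 20.6% of genes higher and 19.6% lower. The count of 4 calls moved when single hearts were left out, as did the 2805 calls over all genes. Without Myh6-ctl replicate 1 the count of members was 1 (Xirp1), with 798 genes called in all. It was 2 (Xirp1 and Xirp2) without Myh6-ctl replicate 3 (1637 in all). Without replicate 2 or 3 of the hearts labelled Myh6-tg it was also 2, the same genes (982 and 969 in all). Without replicate 1 of the hearts labelled Myh6-tg it was 7 (4269 in all).

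In the EIIa model the same 8 members had a positive log2 fold change in EIIa-tg hearts and Fhl2 a negative one, with a median log2 fold change of 1.43 against 0.02 over all 14908 genes. This contrast chose the set, so its values are a description and carry no test. Past an adjusted p of 0.05 were 5 members higher and 1 lower, against 8.65% and 8.30% of all genes, and groups did not overlap in 6 members higher and 1 lower, against 20.3% and 20.8%. Abra, which chose the set, is among the 5, and nothing is read from these counts. Over all genes, 2527 were past that adjusted p. The count of members was 7 without EIIa-tg replicate 2, where 4079 genes passed in all. It was 3 without EIIa-ctl replicate 2 (1794 in all) or EIIa-tg replicate 3 (133 in all). By edgeR it was 0 without EIIa-ctl replicate 1, EIIa-ctl replicate 3 or EIIa-tg replicate 1, where 0, 1 and 0 genes passed in all. The 0 of such fits is thus not particular to the members. DESeq2 on all 6 hearts gave 7, with 3491 genes in all.

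**Figure D1:**
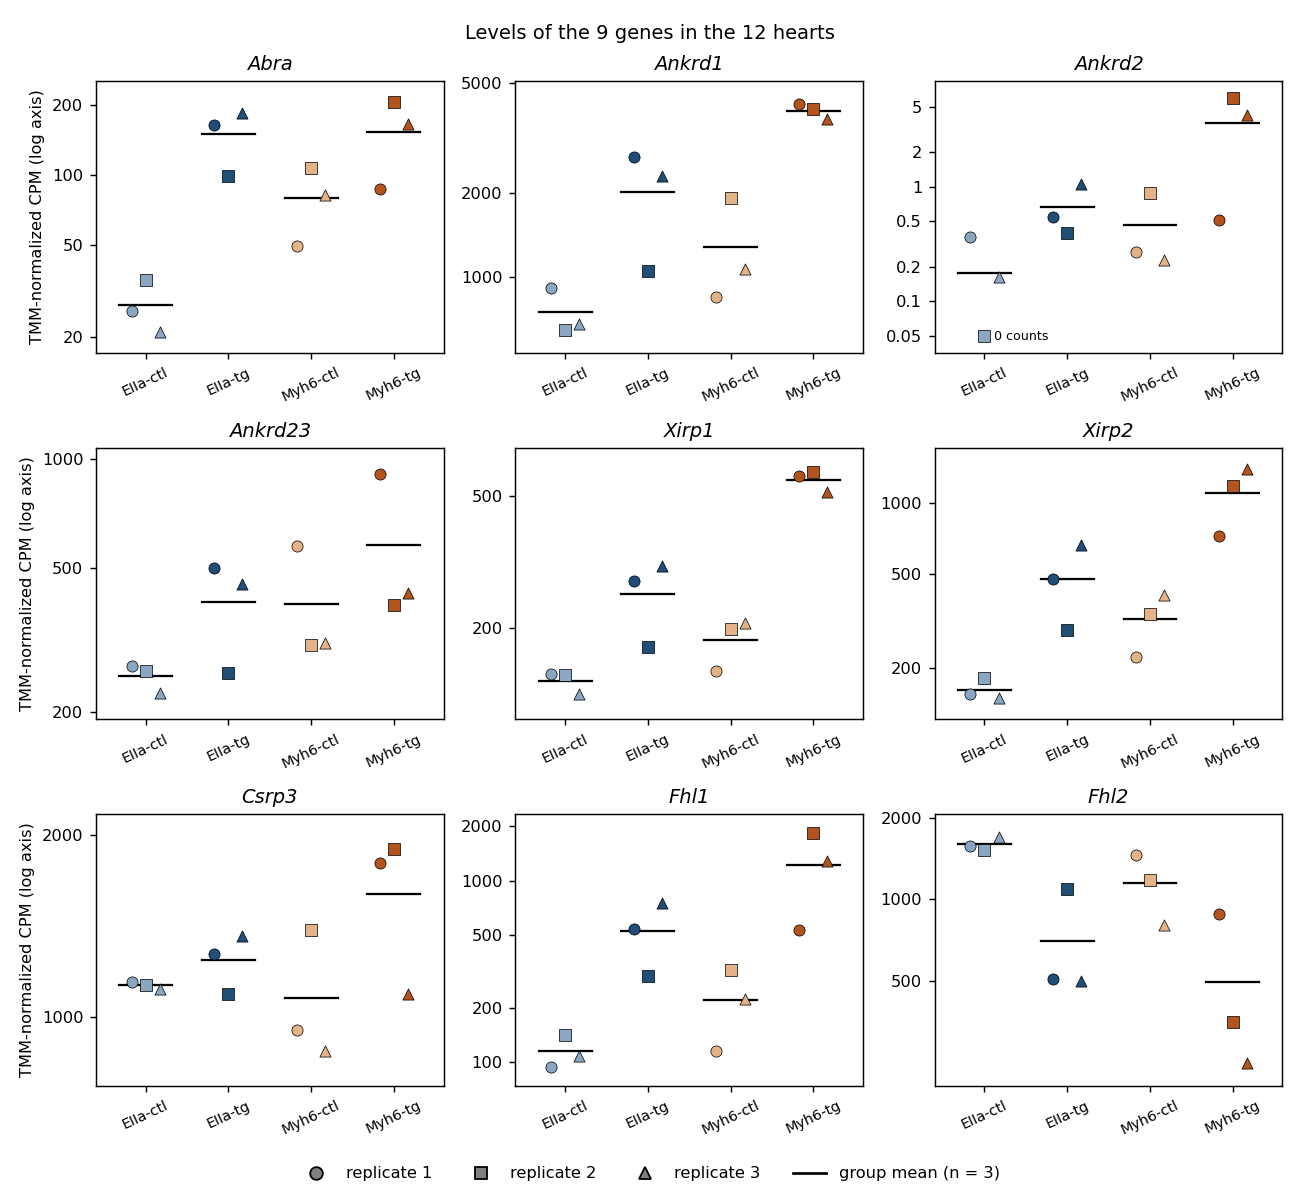
TMM-normalized CPM of the 9 genes (log axis, a scale of its own per panel) in the 4 groups, with 1 point per heart, shaped by replicate number, and a line at the mean of 3 hearts. Ankrd1, Xirp1, Xirp2 and Fhl1 of the hearts labelled Myh6-tg lie above all Myh6-ctl hearts, and Fhl2 runs the other way; the Ankrd2 heart with 0 counts is drawn at 0.05.

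Abra, the actin-binding activator of SRF signalling, was the member with the largest fitted change in EIIa-tg hearts. It stood at 26.1, 35.2 and 21.2 CPM in EIIa-ctl hearts and at 163, 98.7 and 185 CPM in EIIa-tg hearts, which do not overlap. Means were 27.5 ± 7.09 CPM for EIIa-ctl (SD, n = 3) and 149 ± 44.8 CPM for EIIa-tg, a ratio of 5.42, and the fitted log2 fold change was 2.43 ± 0.26 (SE). Abra chose the set by this rise, so its rank, with 216 of 14908 genes higher, is a description. In the Myh6 model it stood at 49.3, 107 and 81.6 CPM in Myh6-ctl hearts and at 86.6, 205 and 166 CPM in the hearts labelled Myh6-tg, so that replicate 1 of the latter lay within the controls. The log2 fold change was 0.95 ± 0.38 with an adjusted p of 0.123 (edgeR). With the replicate block it was 0.93 ± 0.16 with an adjusted p of 0.0125, and over all alternatives the adjusted p ran from 0.0125 to 0.335. Without replicate 1 of the hearts labelled Myh6-tg, Abra was called. On unnormalized CPM and on FPKM the Myh6 groups did not overlap in Abra. Neither scale carries the TMM factors, which were 0.825 to 1.04 in Myh6-ctl hearts and 1.09 to 1.30 in the hearts labelled Myh6-tg. In order of the mean, EIIa-ctl was lowest, then Myh6-ctl at 79.3 ± 28.8 CPM, then EIIa-tg and the hearts labelled Myh6-tg at 152 ± 60.3 CPM, and hearts of neighbouring groups overlapped everywhere in this order except between EIIa-ctl and Myh6-ctl.

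Of the ankyrin repeat genes, Ankrd1 rose in the hearts labelled Myh6-tg. It stood at 842, 1926 and 1070.5 CPM in Myh6-ctl hearts and at 4194, 4016 and 3692 CPM in the hearts labelled Myh6-tg, with means of 1279.6 ± 571 and 3967 ± 255 CPM. All 3 of the latter lay above every other heart of the study. The log2 fold change was 1.63 ± 0.35 with an adjusted p of 0.0200, and 0.0117 with the replicate block, over a range of 1.03e-05 to 0.0746 among alternatives. It lost the call without Myh6-ctl replicate 1 or 3 or without replicate 2 or 3 of the hearts labelled Myh6-tg. EIIa-ctl hearts had 911, 644 and 677 CPM and EIIa-tg hearts 2696, 1049 and 2315 CPM, which gave a fitted change of 1.43 ± 0.32. EIIa-tg replicate 2 lay closest to the controls.

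Ankrd2, the form of slow skeletal muscle, was near the floor in most hearts. It had 16, 0 and 6 counts in EIIa-ctl hearts, 22, 20 and 47 in EIIa-tg hearts, 12, 34 and 12 in Myh6-ctl hearts and 24, 275 and 223 in the hearts labelled Myh6-tg. Only replicates 2 and 3 of the latter stood apart, at 5.97 and 4.22 CPM, and replicate 1 was at 0.512 CPM. The log2 fold change of 2.97 ± 0.93 had an adjusted p of 0.0628, and 2.68 ± 0.70 with the replicate block had one of 0.0413, over a range of 0.00278 to 0.193 among alternatives. Its EIIa value of 1.86 ± 0.93 was 2.98 without EIIa-ctl replicate 1 and ran from 0.49 to 3.11 over all alternatives. The 10 skeletal muscle markers summed to 11.8 to 37.7 CPM in Myh6-ctl hearts and to 39.4 to 59.4 CPM in the hearts labelled Myh6-tg, with Myh1, Myh4, Myod1 and Myog at 0 in all 3 of the latter and Myh2 at 0.0868 CPM or less. Tnnt3, the fast skeletal troponin T gene, was at 0.249 to 1.32 CPM in Myh6-ctl hearts and at 5.07 to 48.7 CPM in the hearts labelled Myh6-tg. In the heart with 48.7 CPM, Tnnt3 alone made up most of the sum, which was at most 59.4 CPM. The sums thus do not show a rise of the 10 markers as a set. The part of these markers in the Ankrd2 counts was not tested.

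Ankrd23, which like the others binds titin, did not pass the test. It stood at 574, 306 and 309 CPM in Myh6-ctl hearts and at 909.6, 393 and 425 CPM in the hearts labelled Myh6-tg, so that replicate 1 was the highest in both groups. The log2 fold change was 0.54 ± 0.40 with an adjusted p of 0.388, and 0.50 ± 0.18 with the replicate block, with the smallest adjusted p among alternatives at 0.0717. Single hearts moved it, to 0.04 without replicate 1 of the hearts labelled Myh6-tg and to 0.90 without Myh6-ctl replicate 1. At P30 the controls had 268, 259.7 and 225 CPM and the EIIa-tg hearts 499, 256 and 452 CPM (log2 fold change 0.68 ± 0.22), and replicate 2 lay within the controls.

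Both Xin genes rose in the hearts labelled Myh6-tg. Xirp1 stood at 148, 199 and 206 CPM in Myh6-ctl hearts and at 577, 591 and 516 CPM in the hearts labelled Myh6-tg, the narrowest spread beside Ankrd1 within that group. Its log2 fold change of 1.61 ± 0.21 had an adjusted p of 0.00487, and it was called under all 17 alternatives, with adjusted p between 5.78e-11 and 0.0253. Levels of 145, 144 and 126 CPM in EIIa-ctl and of 277, 175 and 307 CPM in EIIa-tg hearts gave a smaller value, 0.87 ± 0.19. Cx3cr1, a gene of macrophages that shares bases with Xirp1, averaged 4.14 ± 3.37 CPM in Myh6-ctl hearts and 2.23 ± 1.79 CPM in the hearts labelled Myh6-tg.

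Xirp2 stood at 222, 336 and 406 CPM in Myh6-ctl hearts and at 719, 1178 and 1391 CPM in the hearts labelled Myh6-tg. Its log2 fold change of 1.77 ± 0.34 had an adjusted p of 0.0140, and it lost the call only without Myh6-ctl replicate 1, at 0.0578. The EIIa-ctl hearts had 155, 181 and 149 CPM, the EIIa-tg hearts had 477, 288 and 664 CPM, and the fitted change was 1.55 ± 0.26. In each transgenic group every heart lay above all of its controls.

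The LIM genes differed in sign. Fhl1, in which mutations cause an X-linked myopathy, stood at 116, 321 and 223 CPM in Myh6-ctl hearts and at 538, 1823 and 1277 CPM in the hearts labelled Myh6-tg. Its log2 fold change of 2.46 ± 0.53 had an adjusted p of 0.0193, and 2.41 ± 0.20 with the replicate block had one of 0.00225, over a range of 1.265e-06 to 0.0719 among alternatives. It lost the call without the same 4 hearts as Ankrd1. Among EIIa hearts, controls had 94.9, 142 and 108 CPM and EIIa-tg hearts 543, 298 and 749 CPM, which did not overlap, with a fitted change of 2.198 ± 0.31.

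Fhl2, a LIM-only protein abundant in the heart and a partner of titin, was the one member with a negative value in both models. EIIa-ctl hearts had 1582, 1525 and 1708 CPM and EIIa-tg hearts 507, 1093 and 498 CPM, for a fitted change of -1.20 ± 0.30. In the Myh6 model it stood at 1455, 1177 and 807 CPM in control hearts and at 884, 352 and 247 CPM in the hearts labelled Myh6-tg, where replicate 1 lay within the controls. The log2 fold change of -1.22 ± 0.48 had an adjusted p of 0.12. With the replicate block it was -1.39 ± 0.27 with an adjusted p of 0.0161, over a range of 0.00604 to 0.301 among alternatives.

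Csrp3, the Z-disc protein MLP, did not pass the test and had the smallest fitted change of the set in the EIIa model. It ranged from 1111 to 1141 CPM in EIIa-ctl hearts and from 1092 to 1359.9 CPM in EIIa-tg hearts, and the fitted change was 0.13 ± 0.12. It ranged from 879 to 1392 CPM in Myh6-ctl hearts and from 1091 to 1896 CPM in the hearts labelled Myh6-tg, a log2 fold change of 0.57 ± 0.31 with an adjusted p of 0.236. On FPKM the groups did not overlap in either model and Csrp3 passed in the Myh6 model under 2 of the alternatives, at adjusted p down to 0.0269. That scale shifts the median over all genes to 0.34 in the Myh6 model and 0.16 in the EIIa model, against 0.03 and 0.02 with TMM.

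**Figure D2:**
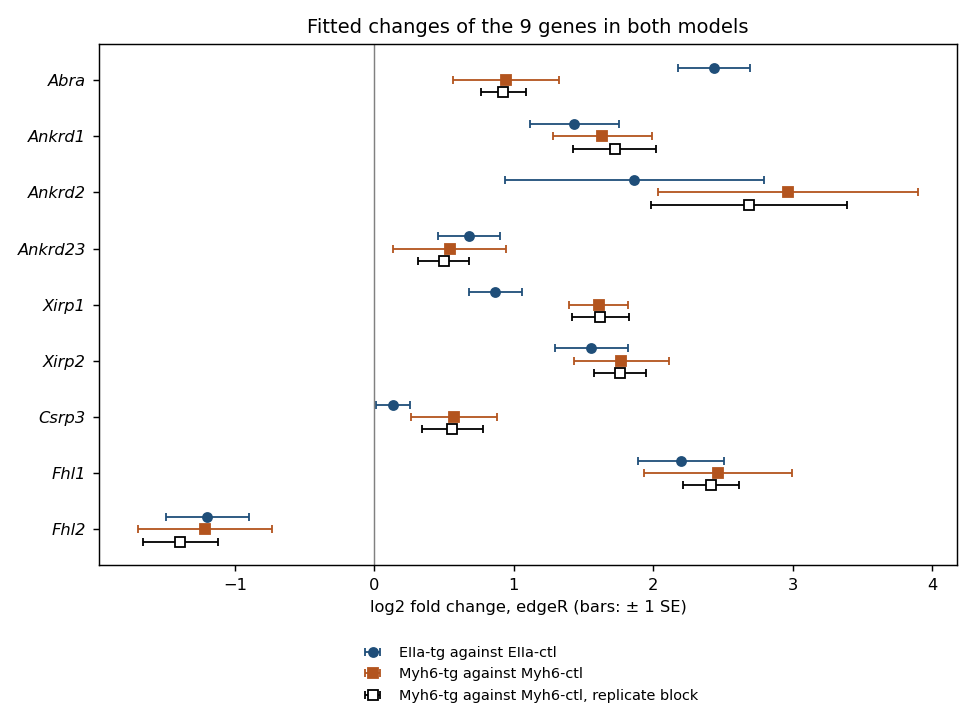
Fitted log2 fold change (horizontal axis) of each gene with bars of 1 SE, for EIIa-tg against EIIa-ctl, for the hearts labelled Myh6-tg against Myh6-ctl, and for the latter with the replicate number as a block. Fhl2 is below 0 in all 3 fits and the other 8 genes above it, Abra is at 2.43 in the EIIa model and 0.95 in the Myh6 model, and the block narrows the bars of Abra, Fhl1 and Ankrd23.

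The models were set side by side in one fit of all 12 hearts, as a description, since the EIIa contrast chose the set. The Myh6 change minus the EIIa change was -1.49 ± 0.50 in log2 for Abra and 0.73 ± 0.29 for Xirp1. For Ankrd1, Ankrd23, Xirp2, Fhl1 and Fhl2 it lay between -0.14 and 0.26, with SE of 0.45 to 0.65. It was 0.43 ± 0.33 for Csrp3 and 1.09 ± 1.42 for Ankrd2. Myh6-ctl hearts differed from EIIa-ctl hearts as well, by 1.53 ± 0.36 for Abra, 0.99 ± 0.32 for Xirp2, 0.94 ± 0.46 for Fhl1, 0.78 ± 0.36 for Ankrd1 and -0.49 ± 0.44 for Fhl2, against a median of 0.02 over all 15929 genes. Abra was thus higher in the older, injected controls than in the EIIa-ctl hearts (79.3 against 27.5 CPM), while the hearts of both transgenic groups overlapped (152 and 149 CPM). Ankrd1, Xirp1 and Xirp2 of the hearts labelled Myh6-tg lay above all EIIa-tg hearts.

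**Figure D3:**
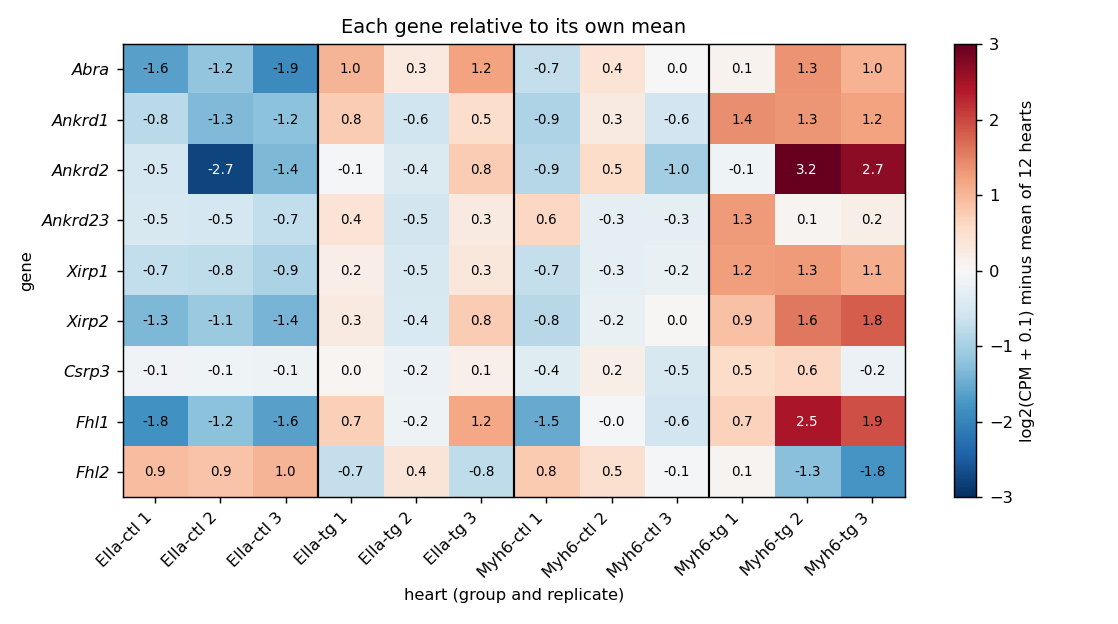
Each gene's log2(CPM + 0.1) minus its mean over the 12 hearts (colour and printed value), with hearts in columns by group and replicate. EIIa-tg replicate 2 has the lowest value of its group in 8 genes and the highest in Fhl2, and replicate 1 of the hearts labelled Myh6-tg is near 0 in Abra, Ankrd2 and Fhl2 while Ankrd1 and Xirp1 are as high there as in replicates 2 and 3.

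EIIa-tg replicate 2 had the lowest level of its group in 8 members and the highest in Fhl2. Its summed cardiomyocyte markers were 33056 CPM, against 18588 and 18764 CPM in the other EIIa-tg hearts and 37594 to 45595 CPM in EIIa-ctl hearts. Replicate 1 of the hearts labelled Myh6-tg had the lowest Abra, Ankrd2, Xirp2 and Fhl1 and the highest Fhl2 of its group, yet it also had the highest Ankrd1 and Ankrd23. It had the highest summed cardiomyocyte markers (28748 CPM) and the lowest summed fibroblast markers (2568 CPM, against 5667 and 6098 CPM in replicates 2 and 3 and 1911 to 2405 CPM in Myh6-ctl hearts). It was also the only heart of its group with Y-linked counts. The parts of cell makeup and of sex in these differences were not tested. Ankrd1 and Xirp1, at 3692 to 4194 and 516 to 591 CPM, were within a narrow range over these 3 hearts, while Fhl1 spanned 3.39-fold and Ankrd2 11.6-fold.

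Per length, on the authors' FPKM scale, Csrp3 was the most abundant member in EIIa-ctl, EIIa-tg and Myh6-ctl hearts (1139 ± 43.9, 1435 ± 229 and 1077 ± 184 FPKM, n = 3 each) and Ankrd1 in the hearts labelled Myh6-tg (2634 ± 82.1 FPKM, against 2113 ± 483 FPKM for Csrp3). Fhl2 was the second most abundant in both control groups, at 951 ± 49.5 and 672 ± 145 FPKM, and the third in EIIa-tg hearts (468 ± 213 FPKM) and the fourth in the hearts labelled Myh6-tg (371 ± 228 FPKM), where Fhl1 stood above it in mean (639 ± 352 FPKM). Fhl1 was at 43.9 ± 11.4 FPKM in EIIa-ctl and 84.8 ± 37.8 FPKM in Myh6-ctl hearts. Ankrd2 was the lowest in every group, at 0.129 to 3.92 FPKM on average.

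The genes of nearest profile were sought among 10197 genes, by the root mean square difference of log2(CPM + 0.1) over the 12 hearts after centring each gene. Nearest to Abra were Spsb2 (0.26), Gm13889 (0.36), the adhesion gene Alcam (0.37), the calcium-binding protein gene S100a4 (0.39) and Anapc15, a subunit gene of the anaphase-promoting complex (0.41). Their group means ran up to 35.4 CPM, for Gm13889 in EIIa-tg hearts. The lowest was that of Spsb2 in EIIa-ctl hearts. Spsb2 had means of 1.87, 9.74, 4.65 and 13.3 CPM in EIIa-ctl, EIIa-tg, Myh6-ctl and the hearts labelled Myh6-tg. Among the members, Xirp2 was closest to Abra, with 26 of those genes as close or closer. Nearest to Ankrd1 were the histone gene Hist1h1c (0.19), Sqstm1, the gene of the autophagy receptor p62 (0.23), and the transcription factor genes Cebpd (0.27) and Myc (0.30). Sqstm1 stood at means of 375, 1083, 664 and 1929 CPM in the same order of groups. Xirp1 was the member closest to Ankrd1, at 0.33, with 11 genes as close or closer. The size of the own profile, on the same scale, was 1.08 for Abra and 0.98 for Ankrd1. All points share the same 12 libraries and the large steps between groups, and the likeness carries no test.

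**Figure D4:**
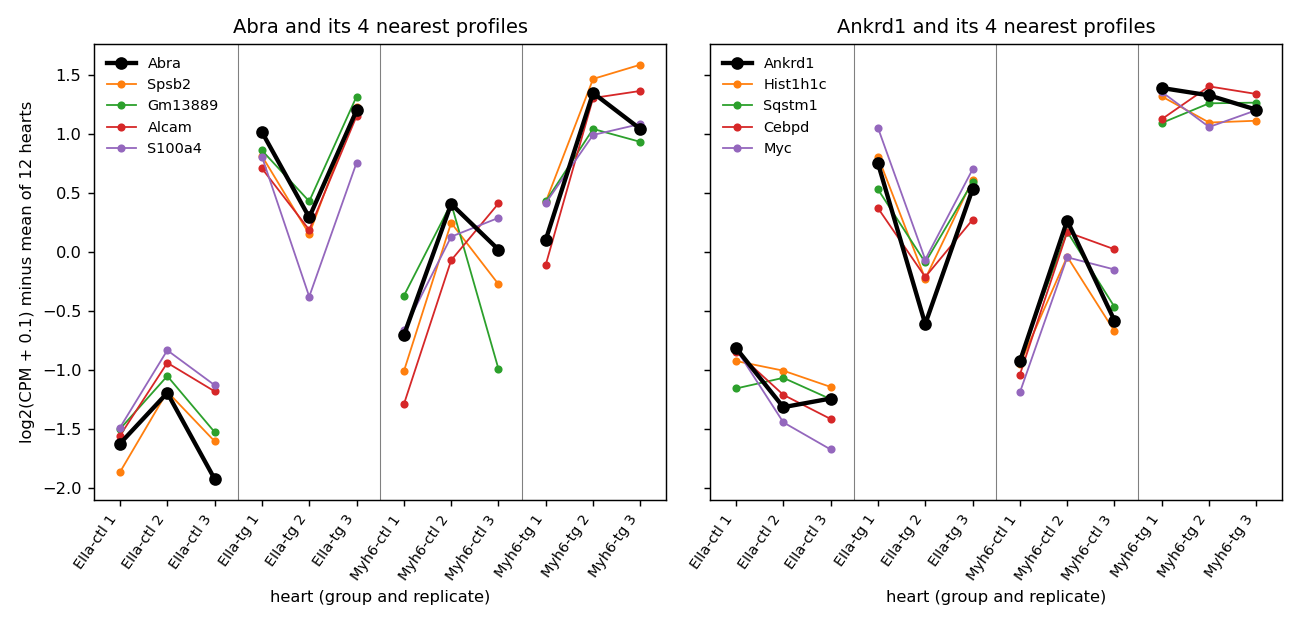
Log2(CPM + 0.1) minus the mean over 12 hearts (vertical axis) in each heart, for Abra (left) and Ankrd1 (right) in black and the 4 genes of nearest profile in colour, where lines only join the points of a gene within a group. Abra and its neighbours dip in replicate 1 of the hearts labelled Myh6-tg, whereas Ankrd1 and its neighbours lie between 1.06 and 1.40 in all 3 of those hearts.

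Genes around the members were taken from 4 lists. Of 27 targets of SRF-MRTF or YAP, 10 rose, 1 fell and 16 did not pass in the hearts labelled Myh6-tg, against the 8.96% and 9.38% of all genes, with a median log2 fold change of 0.62. The YAP target Ctgf went from 213 ± 137 to 2363 ± 193 CPM (3.47 ± 0.56 on the log2 scale, adjusted p 0.00875), the matrix gene Thbs1 from 33.9 ± 9.27 to 297 ± 67.5 CPM (3.13 ± 0.28, adjusted p 0.00165) and the smooth muscle gene Cnn1 from 13.2 ± 10.5 to 374 ± 311 CPM (4.82 ± 1.19, adjusted p 0.0299), with overlapping hearts in Cnn1 alone of these. Smtn, another smooth muscle gene, fell from 97.0 ± 6.09 to 42.3 ± 5.46 CPM (-1.20 ± 0.17, adjusted p 0.00561). The 6 smooth muscle and pericyte markers, Cnn1 among them, summed to 1009 to 1284 CPM in Myh6-ctl hearts and to 1006 to 1547 CPM in the hearts labelled Myh6-tg. These sums averaged 1107 ± 153 and 1306 ± 275 CPM with Cnn1 in them. The other markers together thus averaged lower in the hearts labelled Myh6-tg.

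Of 31 genes of actin, integrin and SRF signalling, 4 rose, 2 fell and 25 did not pass, against the same 8.96% and 9.38%, with a median of 0.23. Nox4, an oxidase, rose from 2.05 ± 0.452 to 52.6 ± 9.67 CPM (4.67 ± 0.26 on the log2 scale, adjusted p 0.000610), Ilk, the integrin-linked kinase, from 62.9 ± 4.85 to 230.1 ± 20.8 CPM (1.87 ± 0.18, adjusted p 0.00201) and its partner integrin Itgb1 from 444 ± 16.9 to 1011 ± 116 CPM (1.19 ± 0.21, adjusted p 0.0106). The kinase gene Prkd1 fell from 8.22 ± 0.612 to 4.81 ± 0.419 CPM (-0.77 ± 0.21, adjusted p 0.0420) and lost the call with the replicate block, at 0.0552. Mef2c fell from 58.4 ± 3.01 to 36.0 ± 8.37 CPM (-0.70 ± 0.20, adjusted p 0.0462). Wwtr1, the coactivator TAZ, also rose (0.60 ± 0.16, adjusted p 0.0387) and is named here after its value was seen. Srf itself, which did not pass, was at 77.3 ± 7.24 CPM in Myh6-ctl hearts and 99.0 ± 9.85 CPM in the hearts labelled Myh6-tg.

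Of 36 Z-disc and titin partners, 7 rose, 1 fell and 28 did not pass, against the same 8.96% and 9.38%, with a median of 0.15. The intermediate filament gene Des rose from 2194 ± 852 to 9773 ± 2578 CPM (2.15 ± 0.39 on the log2 scale, adjusted p 0.0119), the filamin gene Flnc from 239 ± 38.2 to 1136 ± 272 CPM (2.25 ± 0.27, adjusted p 0.00372) and the LIM gene Pdlim3 from 34.5 ± 21.7 to 303 ± 144 CPM (3.13 ± 0.60, adjusted p 0.0140). The 1 gene that fell, named after its value was seen, was the protease gene Capn3, at 1.65 ± 0.656 and 0.337 ± 0.166 CPM (-2.28 ± 0.63, adjusted p 0.0426). Of the 5 paralogs of the members, 4 were tested, and Csrp2, a relative of Csrp3, rose from 14.0 ± 0.346 to 45.2 ± 10.8 CPM (1.69 ± 0.21, adjusted p 0.00416). Hearts of the Myh6 groups lay apart in all called list genes except Cnn1. With the replicate block Prkd1 lost the call, as did the immediate early genes Fos (1.53 on the log2 scale, adjusted p 0.0371 and, with the block, 0.0645) and Ier2 (0.71, adjusted p 0.0438 and 0.0604), both named after their values were seen. In the EIIa model, as a description, 14 of the 98 tested list entries were past the same adjusted p and higher and 12 lower, against the 8.65% and 8.30% of all genes, where Ilk stands in 2 lists. With the replicate block, whose numbers do not pair the EIIa hearts, edgeR put 0 list entries and 1 of all 14908 genes past it. The 7 fibroblast markers summed to 1911 to 2405 CPM in Myh6-ctl hearts and to 2568 to 6098 CPM in the hearts labelled Myh6-tg, and the part of this in the list counts was not tested.

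**Figure D5:**
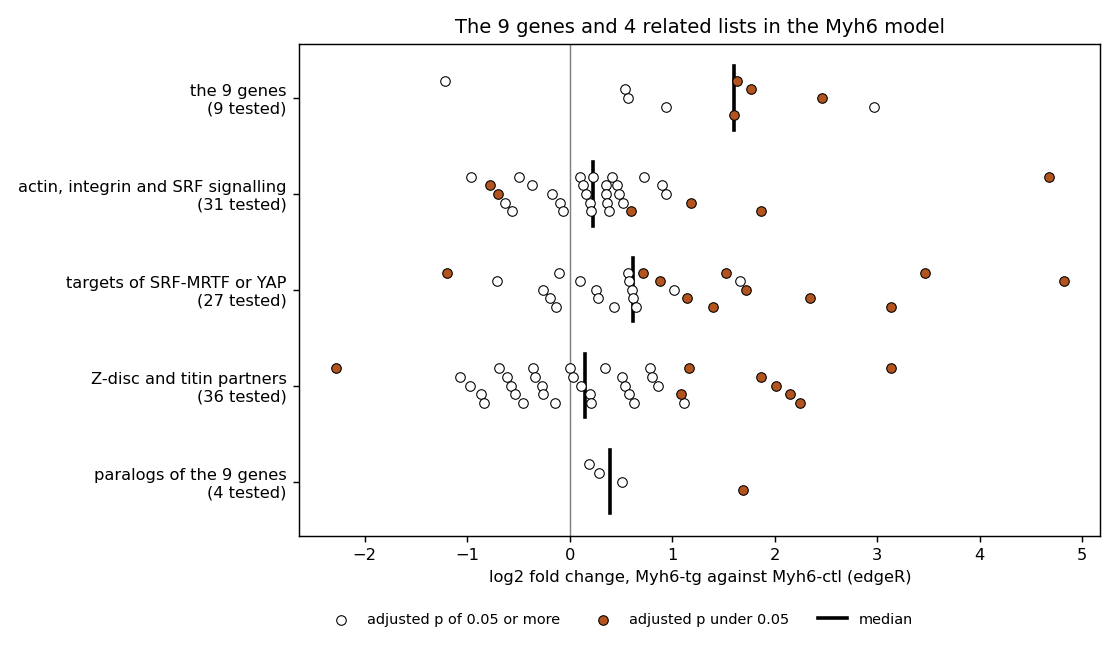
Log2 fold change of the hearts labelled Myh6-tg against Myh6-ctl (horizontal axis) for the 9 genes and for the tested genes of 4 lists, with 1 point per gene, filled where the adjusted p was under 0.05, and a line at the median. The 9 genes have a median of 1.61 and the lists medians of 0.62 or less, with single genes of 3 lists, such as Cnn1 at 4.82 and Nox4 at 4.67, beyond all of the 9.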

How the data were processed

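RNA-seq was done on the hearts of 12 mice, 3 in each of 4 groups, grouped by the titles in their labels, and 2 EIIa-tg labels carry other genotype names. According to the study's methods, the authors mapped paired-end reads to GRCm38 with HISAT2. The submitters' processing notes list HISAT2 2.0.4, StringTie 2.2.1 and DESeq2, besides GRCm39 and mm10. The counting program and annotation release are not given in the sources used here. The authors deposited whole-number counts per locus, without normalization, and FPKM, which they scaled to transcript length and depth. Of the 25171 loci, 22022 had an identifier in GENCODE M21.

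The members and lists were chosen with earlier results of these data known. Genes were kept by filterByExpr and tested with edgeR 4.0.16 (TMM, glmQLFit, glmQLFTest) in R 4.3.3 on the 6 hearts of a comparison, with Benjamini-Hochberg adjustment over all genes kept. Scripts were tested on simulated counts. Displayed CPM used TMM factors of all 12 hearts. FPKM served to compare levels between genes and, with limma 3.58.1 on log2(FPKM + 1) or log2(FPKM + 0.1), as alternatives, beside DESeq2 1.42.0. From each list, up to 3 called genes with the largest rise and 3 with the largest fall, at a mean of at least 1 CPM over 6 hearts, were named, as were 5 nearest profiles (mean of at least 5 CPM), of which 1 is not reported here. Deviations of same-numbered hearts from their group means correlated at 0.273, 0.177 and 0.179 across genes in the Myh6 model, so the block is given beside those results. These correlations are not independent, since deviations within a group sum to 0, and the labels state no pairing. Replicates differed by far more than counting noise, and the p-values measure the spread between these hearts. Floors of 3 counts cover counting error only.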

Additional observations from a re-analysis of the deposited data

Results flagged for a closer look

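Among 13 list genes named for the Myh6 model, 3 had changes that differed between the models in a test of the difference itself (edgeR, all 12 hearts in one fit, adjusted over 15929 genes, of which 624 passed). The 13 were named for their large changes in the Myh6 model, a choice that itself favours a difference, so 3 of 13 is not to be read against 624 of 15929. The Myh6 change minus the EIIa change was 4.19 ± 0.34 in log2 for Nox4 (adjusted p 0.000327), 1.60 ± 0.20 for Ilk (adjusted p 0.00287) and 1.04 ± 0.20 for Itgb1 (adjusted p 0.0153). Nox4 was at 1.41 to 1.84 CPM in EIIa-ctl, 1.53 to 2.70 CPM in EIIa-tg, 1.65 to 2.54 CPM in Myh6-ctl and 43.2 to 62.5 CPM in the hearts labelled Myh6-tg, so that all 3 of the latter stood apart from the other 9 hearts. Ilk was at 59.7 to 94.5 CPM and Itgb1 at 430 to 556 CPM in the other 9 hearts, against 207 to 247 and 894 to 1125 CPM in the hearts labelled Myh6-tg. The remaining 10 named genes, Ctgf, Des and Flnc among them, did not pass that test, which does not show that their changes were alike. Age, Cre line, injection and the Esr1 levels that go against the labels differ between the models together and cannot be told apart.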

How the results depend on the processing

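No member changed direction under any alternative in the Myh6 model, where a filter of at least 1 CPM in at least 3 hearts left Ankrd2 out. The count of 4 members called there was 7 with the replicate block, 7 with limma on log2(FPKM + 1) or log2(FPKM + 0.1), 7 in replicates 2 and 3 only (chosen after seeing the data), 1 at an adjusted p under 0.01 with a log2 fold change of at least 1, and 1 to 7 leaving out single hearts. It was 4 to 6 under the others. The 26 list entries called became 44 with all 12 hearts in one fit, 50 and 49 with limma on log2(FPKM + 1) and log2(FPKM + 0.1), 40 in replicates 2 and 3 only, 10 at the stricter rule and 13 to 45 leaving out single hearts. In the EIIa model the count of 6 became 3 with all 12 hearts in one fit and 7 with DESeq2, and by edgeR or limma it was 0 with the replicate block, 0 with limma without a filter, 0 in replicates 2 and 3 only, 0 at the stricter rule and 0 to 7 leaving out single hearts. Over all genes those fits called 1 with the block, 1 with limma without a filter and 0 in replicates 2 and 3 only. Same-numbered EIIa hearts correlated at 0.0625, -0.0838 and -0.0792, so the numbers do not pair them. Called genes in all went from 2805 to 5049 (12 hearts in one fit), 4228 (limma) and 798 to 4269 (single hearts left out) in the Myh6 model, and from 2527 to 227, 1 (block) and 0 to 4079 in the EIIa model. On FPKM the split of higher to lower calls was 3328 to 900 in the Myh6 model, against 1370 to 1435. That scale carries no TMM factors, and its median log2 fold change over all genes was 0.34, against 0.03 with TMM. The cause of the split was not tested. Depth limited Ankrd2 alone among the members, with 0 to 47 counts in 10 hearts.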

Other observations

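Ankrd23 had its highest level in replicate 1 of all 4 groups, the hearts with Y-linked counts, at 268, 499, 574 and 909.6 CPM. Of 14649 genes tested in both models, 334 (2.28%) share this order. Each group holds 1 such heart, and sex was not tested.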
